A study of Homo sapiens with 6 samples.

Results

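The S100 genes described here were 10 members of the S100 family that are known from the epidermis, namely the alarmins *S100A7*, *S100A8* and *S100A9* and the constitutive members *S100A2*, *S100A4*, *S100A6*, *S100A10*, *S100A11*, *S100A14* and *S100A16*. They were chosen by symbol, without using their levels in these samples, and all 10 were found among the 21475 genes analysed. Bulk RNA-seq was performed on HaCaT cells, a spontaneously immortalized human keratinocyte cell line, with 3 libraries labelled WT and 3 labelled FGFR2 KO. *FGFR2* encodes the receptor for the keratinocyte growth factors FGF7 and FGF10. The KO lines were single-cell clones obtained with a Cas9 ribonucleoprotein directed against exon 7 of *FGFR2*, and the sequenced WT libraries are described by the study as clonally expanded lines. All lines were grown in the same serum-containing medium, with no other treatment given in the labels. Each library came from a different cell line, so the spread within a group is a spread between lines, and a difference between genotypes and a difference between lines can be told apart only as far as 3 lines per genotype allow. The study's WT lines also include the uncloned population from which the KO lines were made, and the labels do not say which line a WT library came from, so a WT library may be that population.

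S100 proteins are small calcium-binding proteins with a pair of EF-hand motifs, which mostly act as dimers. S100A8 and S100A9 form calprotectin, a heterodimer that sequesters metal ions and is released during inflammation, and S100A7 (psoriasin) is an antimicrobial protein of the inflamed epidermis. All 3 are low in healthy epidermis and high in psoriasis, atopic dermatitis and healing wounds. The constitutive members serve mainly inside the cell: S100A10 and S100A11 bind annexins, S100A4 binds non-muscle myosin, S100A6 binds calcyclin-binding protein, S100A2 is a p63 target of basal keratinocytes, and S100A14 and S100A16 are less well understood epithelial members.

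All 10 genes lie on chromosome 1 (build GRCh38, GENCODE release 44 positions), in the epidermal differentiation complex, between base 151982915 at the end of *S100A10* and base 153616986 at the start of *S100A14*. *S100A10* and *S100A11* are separated by 38646 bases and lie 1309946 bases from the next member, *S100A9*. The other 8 members lie closer together, with gaps of 1109 bases between *S100A16* and *S100A14*, 29008 bases between *S100A9* and *S100A8* and 66670 bases between *S100A8* and *S100A7*. *S100A9* is on the plus strand and the other 9 members are on the minus strand.

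The sequence before the transcription start was compared between the alarmins and the constitutive members, which differed in their spread between the libraries, as described below. A link between the sequence and this spread was not tested. RefSeq (GRCh38.p14) start sites were found for 10 of 10 members, and for members with several starts the one nearest to the annotated gene start was taken. The 100 bases before the start overlap no annotated exon in the 3 alarmins, *S100A4*, *S100A2*, *S100A11* and *S100A10*. These bases are shown for all of them except *S100A10*. They are written 5′ to 3′ on the strand of the gene, and capitals mark TATAAA lying 25 to 35 bases before the start. The bases lie at chr1:153460652-153460751 for *S100A7* (minus strand), chr1:153391074-153391173 for *S100A8* (minus strand), chr1:153357754-153357853 for *S100A9* (plus strand), chr1:153545807-153545906 for *S100A4* (minus strand), chr1:153565845-153565944 for *S100A2* (minus strand) and chr1:152037005-152037104 for *S100A11* (minus strand).
S100A7: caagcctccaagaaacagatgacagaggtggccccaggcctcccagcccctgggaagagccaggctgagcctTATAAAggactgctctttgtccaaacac
S100A8: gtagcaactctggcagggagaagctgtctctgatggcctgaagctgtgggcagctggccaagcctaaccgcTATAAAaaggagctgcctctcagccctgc
S100A9: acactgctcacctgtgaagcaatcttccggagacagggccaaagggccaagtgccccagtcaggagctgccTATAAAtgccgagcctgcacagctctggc
S100A4: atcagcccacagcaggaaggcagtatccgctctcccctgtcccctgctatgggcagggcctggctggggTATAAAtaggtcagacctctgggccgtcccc
S100A2: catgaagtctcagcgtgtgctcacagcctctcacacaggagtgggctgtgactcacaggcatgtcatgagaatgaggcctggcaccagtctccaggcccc
S100A11: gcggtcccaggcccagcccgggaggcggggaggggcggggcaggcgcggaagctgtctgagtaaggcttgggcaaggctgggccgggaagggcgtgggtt

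TATAAA was found in this position in 3 of 3 alarmins, starting 28 bases before the start in *S100A7* and 29 bases before it in *S100A8* and *S100A9*. The other RefSeq starts of *S100A8*, at bases 153391188 and 153390976, had no TATAAA in this position. Among the constitutive members it was found in 1 of 7, *S100A4*, at 31 bases before the start. The starts used lay 0 bases from the annotated gene start in the alarmins. In the constitutive members this distance ran from 0 bases for *S100A10* to 10903 bases for *S100A11*, so the start sites compared were unlike. Of 35116 RefSeq promoter windows, 2.17% held TATAAA on the coding strand in this position. With the last base left free (TATAAN), *S100A6* and *S100A14* were added, giving 3 of 7 constitutive members, against 3.57% of all windows. In the 250 bases before these starts and on both strands, the AP-1 motif TGANTCA was found in *S100A2* alone among the members (6.57% of all windows), and the STAT motif TTCNNNGAA was found in none (6.57% of all windows). The C/EBP motif TTNNGNAA was found in *S100A8*, *S100A9*, *S100A6* and *S100A11*, against 33.2% of all windows. These motifs do not overlap the TATAAA match in the members shown, and a match is a description of the letters, not of a bound site.

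Values are FPKM, fragments normalized for transcript length and library depth, as the authors deposited them. They allow levels to be compared between genes and, as shares of a library, between libraries. Mitochondrial transcripts took 21.5 to 27.6% of the FPKM of the WT libraries and 11.9 to 23.7% of the KO libraries, and the depth estimated from the steps of low values was between 67800000 and 88100000 fragments per library. The keratinocyte markers *KRT5* (6086 to 14768 FPKM) and *KRT14* (2793 to 8652 FPKM) were abundant in every library. *FGFR2* was at 21.6, 39.7 and 15.0 FPKM in the WT libraries and at 3.04, 2.26 and 4.31 FPKM in the KO libraries, which did not overlap. The log2 fold change was -2.73 (SE 0.36, adjusted p = 0.261 with limma over 12241 genes, exact permutation p = 0.1, the smallest possible with 3 libraries against 3). No gene reached an adjusted p of 0.05 in this comparison, so 0% of the tested genes were called in either direction. At an unadjusted p up to 0.05 with a log2 fold change of 0.5 or more in size, 10.2% were higher and 2.33% lower in the KO libraries.

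The 10 S100 genes together reached 6353 to 8188 FPKM, or 0.839 to 1.09% of a library. Their summed level was 7010 ± 400 FPKM (SD, n = 3) in WT and 7009 ± 1023 FPKM in KO cells. Nearly all of this came from the constitutive members, at 6315 to 7742 FPKM. The alarmins gave between 37.9 and 621 FPKM, and made up 1.07%, 8.57% and 1.21% of the members' FPKM for WT replicates 1, 2 and 3. For the KO replicates these shares were 5.45%, 2.33% and 0.596%. The high alarmin libraries, WT replicate 2 and KO replicate 1, thus belonged to different genotypes.

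**Figure D1:**
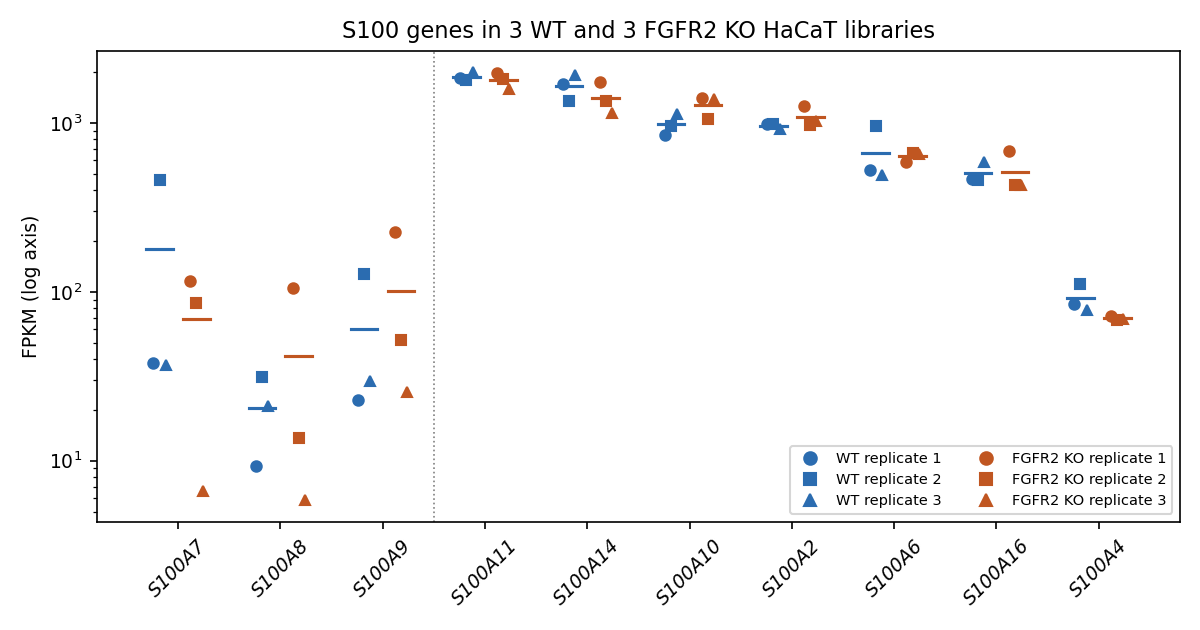
FPKM of each S100 gene (log axis) in 3 WT (blue) and 3 *FGFR2* KO (orange) libraries, 1 point per library with the marker giving the replicate number and a short line at the group mean; the dotted line separates the 3 alarmins on the left from the 7 constitutive members. The alarmins spread over 9.91-fold to 70.0-fold between libraries and the constitutive members over 1.25-fold to 1.94-fold.

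*S100A7* was at 38.0, 462 and 37.1 FPKM in the 3 WT libraries, in the order of their replicate numbers, and at 115, 85.7 and 6.60 FPKM in the 3 KO libraries. WT replicate 2 was the highest and KO replicate 3 the lowest, and the other 4 libraries lay between them with the 2 genotypes overlapping. The highest value exceeded the lowest 70.0-fold over all libraries, 12.5-fold within WT and 17.5-fold within KO. The log2 fold change from WT to KO was -1.08 (SE 1.28, 95% interval -4.07 to 1.91, adjusted p = 0.681, limma), and the exact permutation p was 0.6. The sign of this difference turned to 0.12 without WT replicate 2 and to 0.19 without KO replicate 3.

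*S100A8* was at 9.34, 31.5 and 21.1 FPKM in WT and at 105, 13.7 and 5.84 FPKM in KO cells. KO replicate 1 stood above all other libraries, while KO replicate 2 lay within the WT range and KO replicate 3 below it. The log2 fold change was 0.16 (SE 0.96, 95% interval -2.07 to 2.40, adjusted p = 0.945, limma, exact permutation p = 1), and it was -0.996 without KO replicate 1 and -0.31 without WT replicate 1. *S100A8* was the lowest of the 10 members in 5 of 6 libraries; in KO replicate 1, *S100A4* was lower.

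*S100A9*, the partner of *S100A8* in calprotectin, was at 22.9, 127 and 29.5 FPKM in WT and at 226, 51.6 and 25.4 FPKM in KO cells. KO replicate 1 was again the highest and WT replicate 2 the next. The log2 fold change was 0.59 (SE 0.88, 95% interval -1.46 to 2.64, adjusted p = 0.748, limma, exact permutation p = 0.6), and it was -0.28 without KO replicate 1. All 3 intervals of the alarmins include KO to WT ratios from 0.363 to 3.76, so at this spread the values are compatible with any ratio within these bounds, in either direction.

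*S100A9* exceeded *S100A8* in 6 of 6 libraries, by 2.45-fold, 4.04-fold and 1.40-fold in the WT and by 2.16-fold, 3.76-fold and 4.35-fold in the KO libraries. The log2 ratio of *S100A8* to *S100A9* was -1.26 ± 0.76 (SD, n = 3) in WT and -1.71 ± 0.53 in KO cells, a difference smaller than the spread within WT. *S100A7* and *S100A9* did not keep such an order: the ratio of *S100A7* to *S100A9* was 1.66, 3.63 and 1.26 in WT and 0.509, 1.66 and 0.260 in KO cells. In WT replicate 2 the alarmins were thus led by *S100A7* and in KO replicate 1 by *S100A9*.

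The constitutive members were abundant, and 6 of the 7 had means between 509 and 1836 FPKM over the 6 libraries. *S100A11*, which binds annexin A1, was the highest S100 gene in every library, at 1838, 1798 and 2000 FPKM in WT and 1975, 1810 and 1596 FPKM in KO cells. It ranked between 28 and 41 among all genes of a library. The log2 fold change was -0.07 (SE 0.19, 95% interval -0.50 to 0.36, adjusted p = 0.865, limma).

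*S100A14* was at 1713, 1353 and 1935 FPKM in WT and 1754, 1346 and 1143 FPKM in KO cells, with overlapping groups and a log2 fold change of -0.24 (SE 0.24, adjusted p = 0.613). *S100A16*, its neighbour on the chromosome, was at 467, 457 and 590 FPKM in WT and 680, 427 and 432 FPKM in KO cells (log2 fold change -0.00, 95% interval -0.53 to 0.52). The 2 neighbours therefore differed in which library was highest, WT replicate 3 for *S100A14* and KO replicate 1 for *S100A16*.

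*S100A10*, the light chain that forms a tetramer with annexin A2, was at 854, 962 and 1137 FPKM in WT and 1411, 1053 and 1390 FPKM in KO cells. Both KO replicates 1 and 3 were above all WT libraries, whereas KO replicate 2 fell within the WT range. The log2 fold change was 0.38 (SE 0.20, 95% interval -0.09 to 0.86, adjusted p = 0.369, limma, exact permutation p = 0.2).

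*S100A2* was at 992, 985 and 916 FPKM in WT and 1262, 971 and 1033 FPKM in KO cells, and KO replicate 1 was the highest library (log2 fold change 0.17, SE 0.17, adjusted p = 0.639). *S100A6* was at 529, 958 and 495 FPKM in WT and 587, 661 and 652 FPKM in KO cells. WT replicate 2 was its highest library, as for *S100A7*, and the 3 KO libraries lay between the WT values (log2 fold change 0.00, SE 0.26, 95% interval -0.61 to 0.62).

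*S100A4*, which regulates non-muscle myosin, was the lowest constitutive member, at 85.1, 111 and 78.5 FPKM in WT and 72.4, 68.3 and 69.0 FPKM in KO cells. It was the only member in which the WT and KO values did not overlap, with all KO values below all WT values. Its log2 fold change was -0.37 (SE 0.16, 95% interval -0.74 to -0.00, unadjusted p = 0.049, adjusted p = 0.295 with limma, exact permutation p = 0.1). Of all tested genes, 5.77% had all KO values below all WT values and 24.1% had no overlap in either direction, against 1 of 10 members. *S100A4* overlaps *S100A3* on the same strand, and reads shared by the 2 genes could have been assigned to either.

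**Figure D2:**
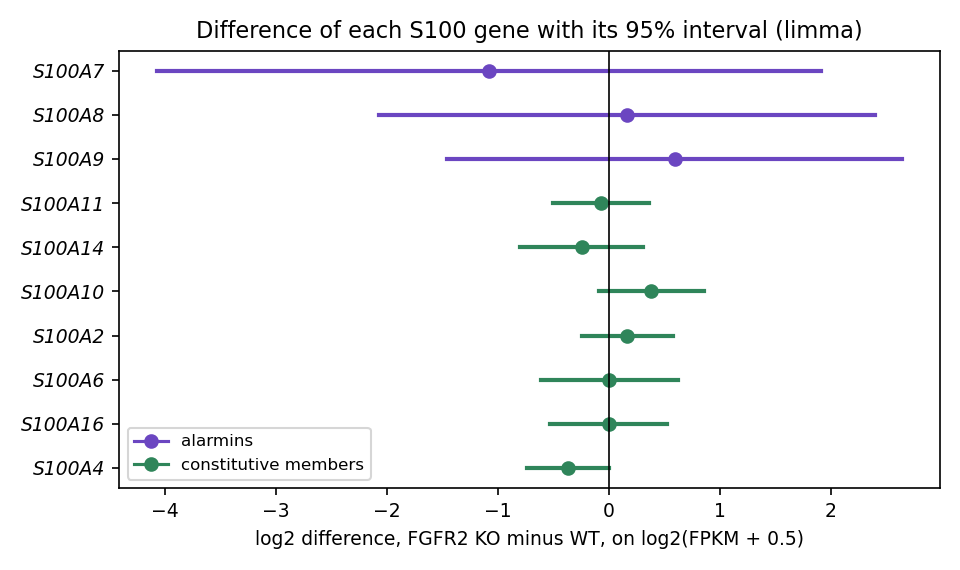
Log2 difference between *FGFR2* KO and WT (KO minus WT) on the log2(FPKM + 0.5) scale for each S100 gene, with the limma estimate as a point and its 95% interval as a line; alarmins are in purple, constitutive members in green and the vertical line marks no difference. The interval of *S100A7* runs from -4.07 to 1.91, whereas that of *S100A11* runs from -0.50 to 0.36.

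None of the 10 members was called at an adjusted p of 0.05, against 0% of all tested genes. None passed the unadjusted threshold together with a log2 fold change of 0.5, against 12.5% of all tested genes in either direction. That count was 1 without KO replicate 2 (*S100A10*, log2 fold change 0.52) and 3 with array weights (*S100A8*, *S100A9* and *S100A10*). Of the alarmins, 2 had a higher and 1 a lower mean log2 level in KO cells (median log2 fold change 0.16). Higher and lower means are counted on the log2 scale throughout, which can differ from the order of the mean FPKM. Of the constitutive members, 3 had a higher and 4 a lower mean (median -0.00), and over all 12241 tested genes 60.6% were higher and the median was 0.09. The mean log2 level of the alarmins minus that of the constitutive members was -4.06 ± 1.31 (SD, n = 3) in WT and -4.15 ± 1.74 in KO cells. This difference of -0.09 lay far within the spread of either genotype, and it ranged from -0.93 without KO replicate 1 to 0.81 without KO replicate 3.

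The alarmins and the constitutive members differed in how much they varied between the libraries. Over the 6 libraries, the SD of the log2 level was 2.01 for *S100A7*, 1.43 for *S100A8* and 1.35 for *S100A9*, whereas that of the constitutive members ranged from 0.12 for *S100A11* to 0.34 for *S100A6*. The median over all tested genes was 0.27. Among the 9325 genes averaging 5 FPKM or more, 9 had a larger SD than *S100A7* (0.0965%), 40 a larger SD than *S100A8* (0.429%) and 56 a larger SD than *S100A9* (0.601%). By contrast, 91.5% had a larger SD than *S100A11* and 79.4% a larger SD than *S100A2*. The share of the variance over the libraries that lay between the genotype means was 0.382 to 8.67% for the alarmins, against a median of 27.8% over all tested genes. Among the constitutive members the median share was 21.2%, and the shares ran from 59.6% for *S100A4*, 52.3% for *S100A10* and 32.6% for *S100A2* through 21.2% for *S100A14* and 11.03% for *S100A11* to 0.0052% for *S100A6* and 0.0026% for *S100A16*. The last 2 were below those of all 3 alarmins. These shares and SDs are descriptions over 6 libraries. Some share arises from the spread between lines even where genotypes do not differ, so a share is not by itself a genotype effect. *S100A4* and *S100A9* had nearly the same mean level, 80.7 and 80.5 FPKM, and SDs of 0.26 and 1.35.

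**Figure D3:**
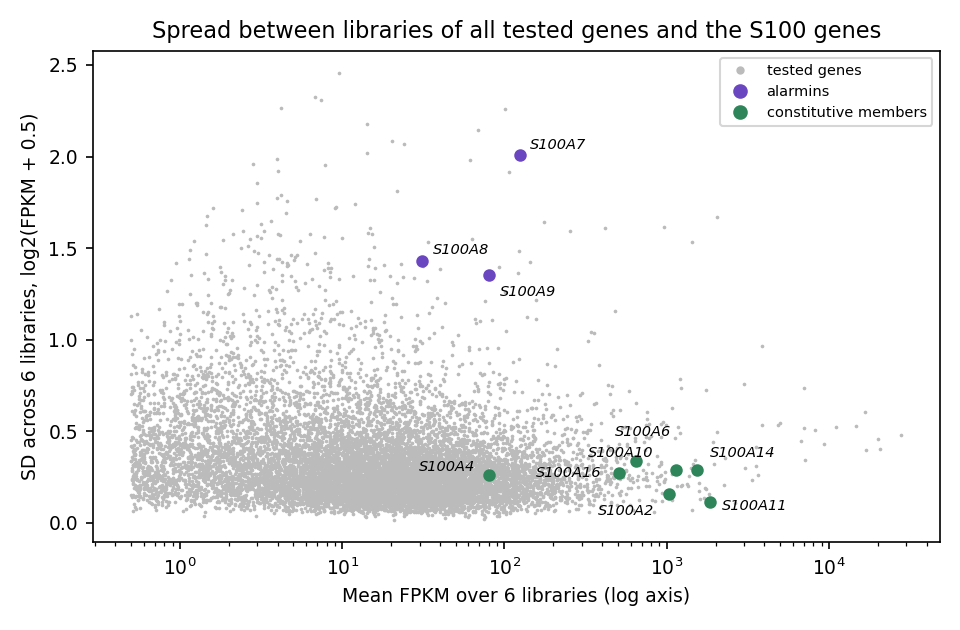
SD of log2(FPKM + 0.5) across the 6 libraries (vertical axis) against the mean FPKM (log axis) for all 12241 tested genes (grey), the 3 alarmins (purple) and the 7 constitutive members (green). The alarmins lie at SDs of 1.35 to 2.01 and the constitutive members at 0.12 to 0.34, near the median of 0.27 of all tested genes.

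In the order of the means over the 6 libraries, *S100A11* was followed by *S100A14*, *S100A10*, *S100A2*, *S100A6*, *S100A16*, *S100A7*, *S100A4*, *S100A9* and *S100A8*. No pair of neighbours in this order had ranges that were apart. *S100A11* was above *S100A14*, *S100A2* above *S100A6* and *S100A9* above *S100A8* in 6 of 6 libraries, whereas *S100A7* was above *S100A4* in only 3. *S100A7* ranked between 170 and 8741 among all genes of a library, and *S100A8* between 1092 and 9003.

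The profile of each alarmin over the 6 libraries was compared with those of 10752 other tested genes averaging 2 FPKM or more, by the root mean square difference of the centred log2 levels. The nearest to *S100A7* was *SCGB1A1*, the secretoglobin of airway club cells, at a difference of 0.48. It was at 130, 787 and 80.6 FPKM in WT and 226, 260 and 30.4 FPKM in KO cells, again with WT replicate 2 highest and KO replicate 3 lowest. *CEACAM5*, a cell adhesion molecule of epithelia, the protease gene *CAPN5*, the focal adhesion gene *TNS1* and the complement gene *CFB* followed, at 0.65 to 0.74. *S100A9* was at place 69 and *S100A8* at place 141 in this list. In the reverse lists *S100A7* was at place 6288 for *S100A8* and at place 3980 for *S100A9*. Its difference from *S100A8*, 1.36, was larger than that of a profile without any variation, 1.31. The levels were centred but not scaled, so this measure reflects the size of the variation as well as its shape. A far place therefore does not show that the alarmins varied independently. Each alarmin was highest in WT replicate 2 and KO replicate 1, though in a different order.

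*S100A8* had *S100A9* at place 3, and *S100A9* had *S100A8* at place 2, at a difference of 0.57. The nearest to *S100A8* were the phospholipase gene *PLA2G4E* (0.32), which was at 0.665, 2.97 and 1.68 FPKM in WT and 6.05, 0.554 and 0.109 FPKM in KO cells, and the cornified envelope gene *SPRR3* (0.55). *A2ML1*, a protease inhibitor of the upper epidermis, and *REEP1* completed the 5 nearest genes, at 0.61 each. The nearest to *S100A9* was *BLMH* (0.48), the protease that breaks down filaggrin peptides, at 1.38, 3.36 and 0.724 FPKM in WT and 7.70, 2.04 and 1.18 FPKM in KO cells. *PLA2G4E*, *CEACAM7* and *DHRS2* were at 0.65 to 0.66. A profile without any variation would be at a difference of 1.83 from *S100A7*, 1.31 from *S100A8* and 1.23 from *S100A9*. *PLA2G4E* and *CEACAM7* exceeded 2 FPKM only in WT replicate 2 and KO replicate 1, where *S100A8* and *S100A9* were highest. Such genes reached the mean of 2 FPKM through those libraries, so the filter favours low genes that peak there. The added 0.5 also narrows differences between low values. With 6 libraries from 6 cell lines these likenesses are descriptive.

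**Figure D4:**
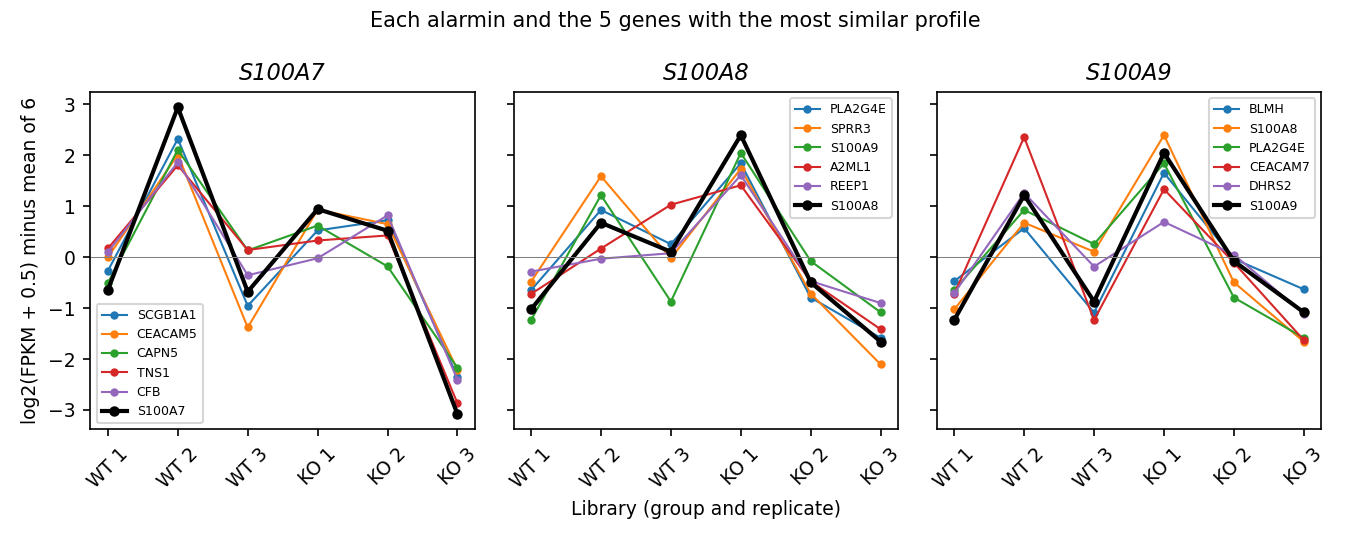
Centred log2(FPKM + 0.5) (vertical axis) in the 6 libraries (horizontal axis, WT and KO with replicate numbers) of *S100A7*, *S100A8* and *S100A9* (black) and, for each, the 5 genes with the smallest root mean square difference (coloured). *S100A7* peaks in WT replicate 2 and *S100A8* and *S100A9* peak in KO replicate 1.

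Other S100 genes were examined as well. Of 11, 5 passed the level needed for testing, and 1 was higher and 4 were lower in KO cells (median log2 fold change -0.06), none of them called. *S100A13* was the highest of them, at 47.3, 61.8 and 57.8 FPKM in WT and 77.1, 54.3 and 59.0 FPKM in KO cells (log2 fold change 0.18, SE 0.18, adjusted p = 0.619), and its mean exceeded that of the member *S100A8*. *S100P* was at 2.86, 17.1 and 1.35 FPKM in WT and 6.02, 2.46 and 0.939 FPKM in KO cells, with the same highest and lowest library as *S100A7* (log2 fold change -0.66, SE 0.86). *S100A12*, which with *S100A8* and *S100A9* makes up the calgranulins, reached 2.01 FPKM in KO replicate 1 and at most 1.15 FPKM in the others. *S100A7A*, a near-identical paralog of *S100A7*, was at most at 0.272 FPKM, and reads shared by the 2 genes could have been split between them. *S100B*, *S100G* and *S100A7L2* were listed at 0 in all libraries.

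The S100 fused-type genes are large structural proteins of the cornified cell and hair follicle that carry an S100 domain at one end, and they lie next to *S100A10* and *S100A11* on chromosome 1. Of 7 such genes, 4 passed the level needed for testing and all 4 had a lower mean in KO cells, with a median log2 fold change of -1.23 against 0.09 over all tested genes. None was called. *RPTN* was at 8.92, 5.58 and 24.3 FPKM in WT and 12.7, 3.24 and 0.293 FPKM in KO cells (log2 fold change -1.73, SE 0.97, adjusted p = 0.391). *CRNN* was at 5.01, 7.29 and 4.09 FPKM in WT and 7.97, 1.09 and 0.206 FPKM in KO cells (-1.46, SE 0.80, adjusted p = 0.381). For both genes KO replicate 1 was within or above the WT range and KO replicate 3 was the lowest, as for the alarmins *S100A7* and *S100A8*. *TCHH*, at 4.38, 5.33 and 4.82 FPKM in WT and 3.79, 2.37 and 1.04 FPKM in KO cells, had no overlap between groups (-0.998, SE 0.36, adjusted p = 0.261), and *FLG* overlapped (-0.51, SE 0.28).

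Between *S100A10* and *S100A16*, 52 other genes were listed and 25 were tested. Of these, 23 had a lower and 2 a higher mean log2 level in KO cells, which is 92% lower, against 42.1% on chromosome 1 and 39.4% of all tested genes. None was called, and 3 had all KO values below all WT values (5.77% of all tested genes). Set against the WT mean of each gene, their median log2 level was 0.06, -0.29 and 0.32 for WT replicates 1 to 3, whereas the KO replicates were at 0.12, -0.50 and -1.19. The count of lower genes was 13 of 25 without KO replicate 3 and 16 of 25 without WT replicate 3. The 25 genes include *TCHH*, *RPTN*, *FLG*, *CRNN*, *IVL*, *S100A3*, *S100A5* and *S100A12*, which are also counted in other lists here. The counts of these lists are therefore not separate observations. Of the 10 S100 genes themselves, 5 had a higher and 5 a lower mean in KO cells.

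Proteins that S100 members bind were also examined. Of 7 partner genes, all were tested, 5 had a higher and 2 a lower mean in KO cells, and none was called. *ANXA2*, whose product binds S100A10, was at 1112, 1279 and 1232 FPKM in WT and 1340, 1370.4 and 1880 FPKM in KO cells, with no overlap (log2 fold change 0.33, SE 0.20, adjusted p = 0.430). *CACYBP*, the partner of S100A6, was at 71.2, 53.3 and 89.6 FPKM in WT and 99.9, 99.9 and 146 FPKM in KO cells, again with no overlap (0.70, SE 0.23, adjusted p = 0.261). *ANXA1*, which S100A11 binds, was at 544, 431 and 788 FPKM in WT and 870, 727 and 968 FPKM in KO cells, where KO replicate 2 lay below WT replicate 3 (0.58, SE 0.25, adjusted p = 0.298). *AHNAK*, which joins the S100A10-annexin A2 complex, was at 741, 1192 and 871 FPKM in WT and 566, 672 and 400 FPKM in KO cells, all KO values being lower (-0.78, SE 0.26, adjusted p = 0.261). *MYH9* and *EZR* were also higher in every KO library, by 0.20 and 0.15 on the log2 scale, and *ANXA11* was at -0.43. In all, 4 of 7 partner genes had all KO values above all WT values, against 18.3% of all tested genes. With scaling to nuclear genes or quantile normalization the groups of *ANXA2*, *MYH9* and *EZR* overlapped and that of *CACYBP* did not.

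Of 9 receptor genes, 7 were tested, 3 with a higher and 4 with a lower mean in KO cells and none called. *AGER*, the receptor for advanced glycation end products, was at 2.98 to 3.79 FPKM over all libraries (log2 fold change 0.03, SE 0.18). *TLR4*, the Toll-like receptor for calprotectin, was at most at 0.0614 FPKM and its cofactor gene *LY96* at most at 0.0298 FPKM. *BSG* and *NPTN*, which encode basigin and neuroplastin, were high, at 325 to 467 FPKM and 191 to 228 FPKM, with log2 fold changes of 0.19 and 0.05. *MCAM* was at -0.42 and *CD14* at -0.25, and *ALCAM* had all KO values (106 to 116 FPKM) below all WT values (122 to 136 FPKM; -0.18, SE 0.12, adjusted p = 0.461). *AGER*, *TLR4* and *LY96* were named for their known role, after their values were seen.

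Antimicrobial genes and other genes of inflamed or hyperproliferative epidermis, keratins among them, were split in direction. Of 20, 13 were tested, with 6 higher and 7 lower in KO cells (median log2 fold change -0.03) and none called. *KRT6A* had a log2 fold change of 1.01 (SE 0.56, adjusted p = 0.387) and was at 2534, 1082 and 4475 FPKM in WT and 7927, 3002 and 4187 FPKM in KO cells. It was thus highest in KO replicate 1, like *S100A8* and *S100A9*, but lowest in WT replicate 2, where *S100A7* peaked. *SPRR2A* was also highest in KO replicate 1 and lowest in WT replicate 2, at 13.99 and 0.239 FPKM (0.74, SE 1.07). *LCN2*, an antimicrobial siderophore-binding protein, was at 47.5, 204 and 32.2 FPKM in WT and 39.9, 52.6 and 20.4 FPKM in KO cells, with WT replicate 2 highest and KO replicate 3 lowest as for *S100A7* (-0.95, SE 0.67, adjusted p = 0.481). *DEFB1*, a beta-defensin, had a log2 fold change of -1.23 (SE 0.84, adjusted p = 0.468). *DEFB4A* and *DEFB103A*, inducible beta-defensins, were listed at 0 in all libraries.

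Of 15 regulators of S100 transcription, 9 had a higher and 6 a lower mean in KO cells, and none was called. *FOSL1*, a subunit of AP-1, was at 6.25, 6.45 and 8.50 FPKM in WT and 19.3, 17.8 and 40.3 FPKM in KO cells (log2 fold change 1.71, SE 0.31, adjusted p = 0.261). *FOS* was at 1.41, 2.25 and 1.75 FPKM in WT and 6.39, 5.04 and 6.59 FPKM in KO cells (1.51, SE 0.21, adjusted p = 0.261). Neither gene overlapped between groups, and their order over the libraries was not that of any alarmin: *FOSL1* was highest in KO replicate 3, where *S100A7* and *S100A8* were lowest. *HIF1A* was also higher in all KO libraries (0.26), though it overlapped with scaling to nuclear genes, and the lowest fold changes were those of *EHF* (-0.38) and *NFKBIZ* (-0.24). Thus 3 of 15 had all KO values above all WT values, against 18.3% of all tested genes.

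Markers of cell types were set beside the alarmins. All 8 keratinocyte markers were tested, 5 higher and 3 lower in KO cells, and their sum ranged from 11188 to 20438 FPKM in WT and 16245 to 32531 FPKM in KO cells. *KRT6A* (1.01), *KRT5* (0.41) and *KRT14* (0.40) had the largest positive log2 fold changes, and *CDH1* (-0.28, with all KO values below all WT values) and *LAMB3* (-0.17) the largest negative ones. Of the 5 markers of differentiated keratinocytes, 4 were tested and all had a lower mean in KO cells, with sums of 1402 to 7420 FPKM in WT and 466 to 4652 FPKM in KO cells. *KRT10* was at 956, 607 and 2056 FPKM in WT and 1503, 530.0 and 86.2 FPKM in KO cells (-1.37, SE 0.96, adjusted p = 0.481), so KO replicate 3 was the lowest, as for *S100A7* and *S100A8*, but WT replicate 2 was not high. *KRT1* (-0.83, and 0.12 without KO replicate 3), *IVL* (-1.17) and *FLG* (-0.51) also had a lower mean, and *LORICRIN* was at most at 0.415 FPKM. The sign of the *KRT10* difference also turned without KO replicate 3, whereas those of *IVL* and *FLG* did not.

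Leukocytes, a source of calprotectin, were represented by 6 markers, of which 2 were tested, both with a lower mean in KO cells. *PTPRC* was at most at 0.153 FPKM, *CD3E* at most at 0.0429 FPKM and *LYZ* at most at 0.213 FPKM. *CD68*, which keratinocytes also express, was at 4.41 to 20.4 FPKM with all KO values below all WT values (-0.84). *CD68*, *CD14* (1.62 FPKM), *ITGAM* (1.01 FPKM) and *LYZ* were highest in WT replicate 2, as was *S100A7*. *PTPRC* was highest in WT replicate 3 and *CD3E* in WT replicate 1. In KO replicate 3, where *S100A7* was lowest, *CD68*, *ITGAM* and *CD3E* were lowest and the other markers were not. *ITGAM* was named after its values were seen. The sum of the 6 markers was 12.8 to 23.4 FPKM in WT and 5.32 to 12.005 FPKM in KO cells. Of 5 fibroblast markers, 2 were tested, *COL1A1* (-0.51) and *DCN* (-1.07), with sums of 7.95 to 33.2 FPKM in WT and 6.89 to 12.6 FPKM in KO cells. *DCN* was at 15.5 FPKM in WT replicate 2, where *S100A7* was highest, at 1.66 FPKM in KO replicate 1, where *S100A8* and *S100A9* were highest, and at most at 0.293 FPKM in the other 4 libraries. *LUM*, named after its values were seen, was at 0.903 FPKM in WT replicate 2 and 1.85 FPKM in KO replicate 1, and at most at 0.0753 FPKM in the other 4. *COL1A1* was at 15.0, 16.7 and 7.66 FPKM in WT and 7.67, 12.2 and 6.82 FPKM in KO cells. Its value in KO replicate 1 was thus below those of WT replicates 1 and 2 and KO replicate 2. *PDGFRA* and *COL1A2* were at most at 0.0638 FPKM in all libraries. Of 4 melanocyte markers, 1 was tested, *PMEL* (-0.42), and the sum was at most 2.44 FPKM. The part of these marker levels in the alarmin values was not tested, and in bulk RNA fewer cells of a type and less RNA per cell cannot be told apart.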

How the data were processed

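The FPKM values per gene that the authors deposited for 3 WT and 3 *FGFR2* KO lines of HaCaT cells were used, with 1 library per line. Poly(A) RNA was sequenced as paired reads from a stranded kit. According to the submitters' processing notes, reads were trimmed with fastp 0.20.0 and quantified with Kallisto 0.46.1 on GRCh38.p13. How FPKM was calculated and which strand setting was used are not given in the sources used here.

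The tables held 21493 genes, of which 18 Y copies of pseudoautosomal genes were dropped because they repeated the X copies, and 21400 of the other 21475 received a symbol from GENCODE release 44. Among 5630 low values of single-transcript genes, 65.1% were whole fragments within 0.02 (4% by chance), so whole reads were not recovered and no count model was run.

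The 12241 genes averaging 0.5 FPKM or more were compared on log2(FPKM + 0.5) by limma (version 3.58.1, in R 4.3.3), with a mean-variance trend and Benjamini-Hochberg adjustment over all of them. Fold changes and the counts of genes with a higher or lower mean are on this scale, which understates the fold changes of low genes. A call needed an adjusted p up to 0.05 with a log2 fold change of 0.5 or more in size. All permutation tests were exact and two-sided, and with 3 libraries against 3 their smallest p is 0.1. The fit was tested on simulated data in which the spread within a group was capped below that of the alarmins. The simulation therefore does not show how the fit performs at their spread. Python 3.11.15 was used for the other steps.

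The members and the gene lists were chosen with earlier results of these data known, and no p is given for a list. Named genes were the 10 members and *FGFR2*; in each list, at most 4 genes with the largest changes in each direction and those without overlap; and, for each alarmin, the 5 genes with the nearest profile. Alternatives changed the pseudocount, filter, scaling, trend, weights and block, or left out a library.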

Additional observations from a re-analysis of the deposited data

How the results depend on the processing

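The comparison was repeated under 19 alternatives, of which 6 left out a library. No member was called under any of them. The count of called genes was 0 in all but 1: with array weights, in which WT replicate 1 carried 89.7% of the summed weight of the WT libraries, 1396 genes were called, 1160 higher and 236 lower in KO cells, and *FGFR2* was called at a log2 fold change of -2.66 (adjusted p = 0.0191). In that fit *S100A10* had an adjusted p of 0.050 and *S100A9* of 0.053, and over the other alternatives the adjusted p of no member was below 0.1. Leaving out 1 library kept 0 called genes and 0 called members, and *FGFR2* between -3.05 and -2.36. At the unadjusted threshold, 1536 genes passed (1251 higher, 285 lower), 630 without KO replicate 3 and 960 without WT replicate 1, and 817 higher against 488 lower with median-of-ratios scaling or 803 against 502 with quantile normalization. The cause was not tested.

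Several small differences of single members changed sign. *S100A7* was at 0.77 with array weights and between -1.82 and 0.19 without 1 library, *S100A8* was at 1.97 and between -0.996 and 1.03, and *S100A9* at 2.19 and between -0.28 and 1.35, respectively. At the unadjusted threshold, 3 members passed with array weights and 1 without KO replicate 2, against 0. *S100A6* was at -0.091 with median-of-ratios scaling, -0.076 with scaling to nuclear genes, -0.077 with the chromosome 1 median removed and -0.054 with quantile normalization, and between -0.17 and 0.31 without 1 library. *S100A11* was at 0.019 with array weights and between -0.143 and 0.0105 without 1 library, and *S100A16* was at 0.035 with TPM scaling, 0.26 with array weights and between -0.22 and 0.11 without 1 library. The directions of *S100A2*, *S100A4*, *S100A10* and *S100A14* were kept under the alternatives run. The difference between alarmins and constitutive members lay between -0.93 and 0.81 without 1 library, and that of the log2 ratio of *S100A8* to *S100A9* between -0.82 and -0.06. Of the genes between *S100A10* and *S100A16*, chosen after seeing the data for these repeats, 15 of 25 were lower with array weights, 15 of 17 with a mean of at least 2 FPKM and 41 of 46 with no filter.

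The labels number the replicates 1 to 3 in both groups. With the replicate number as a block, 0 genes and 0 members were called and *FGFR2* had a log2 fold change of -2.73 (adjusted p = 0.097). The deviations of same-numbered libraries correlated at -0.21, 0.23 and 0.05. Libraries with different numbers were not compared in this way, so these values do not settle whether the numbers pair the samples.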
